A study of Mus musculus with 12 samples.

Results

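In mouse bone marrow-derived dendritic cells, 236 genes changed little in level with lipopolysaccharide and were lower after the inhibitor JSH-23, both without and with lipopolysaccharide. They were chosen by their own values in these libraries, out of 14357 genes that passed a filter on low counts (1.64%) and 55335 genes listed. The choice used CPM, the read pairs counted for a gene per 1e6 pairs of its library, with library sizes adjusted by TMM, a scaling that assumes most genes are equal. A member was a protein-coding gene with a mean of at least 2 CPM in untreated cells, a ratio of lipopolysaccharide-treated to untreated cells from 0.67 to 1.5, and a ratio with to without JSH-23 of at most 0.67, both at rest and under lipopolysaccharide. Of 10361 protein-coding genes at that level, 7294 lay in the lipopolysaccharide window, 307 of these were under the limit at rest, 368 under it with lipopolysaccharide and 244 under it in both. Another 8 were dropped by their symbols (names starting Slc, Zfp, Trim, Arhg, Dock, Rab or Hist), which left the 236. The mirror rule, with both JSH-23 ratios raised by as much, gave 167 genes.

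The NF-κB subunit RelA is held in the cytoplasm of a resting cell and enters the nucleus once a receptor such as TLR4 is engaged by lipopolysaccharide (LPS), a glycolipid from the surface of Gram-negative bacteria. JSH-23 is a small molecule that blocks this entry. Type I interferon acts on a neighbouring circuit, in which signals from its receptor reach the interferon-stimulated response element in promoters of antiviral genes. Dendritic cells keep part of that antiviral programme on before any stimulus.

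The cells were grown from the bone marrow of CreER mice on the C57BL/6 background, which carry a tamoxifen-inducible Cre and, in these samples, an intact Ctcf gene. The study used mice of both sexes at 8 to 12 weeks, and cultures lasted 6 days in GM-CSF with fresh medium every 2 days. The 4 groups of 3 libraries were untreated cells (WT), cells given LPS at 100 ng/ml for 3 h (WTL), cells given 100 µM JSH-23 for 3 h (WT + JSH23), and cells given JSH-23 and then LPS (WTL + JSH23). Solvent treatment of the cells without JSH-23, tamoxifen treatment of these cultures and the mouse behind each library are not given in the labels, so p values measure the spread between these libraries. Libraries without JSH-23 are numbered 4 to 6 and those with it 1 to 3, so any batch that follows these numbers and JSH-23 cannot be told apart.

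Libraries held 24664724 to 34837847 expected counts. Summed TPM (counts per transcript length, scaled to the same total in each library) of 10 dendritic cell markers were 20200 to 21100 in WT, 20100 to 20900 in WTL, 19300 to 19800 in WT + JSH23 and 19200 to 20600 in WTL + JSH23. With JSH-23, 5 of these were lower and 2 higher at rest, 8 were lower and 1 higher under LPS, and 1 is a member. The sums of 12 macrophage markers were 3050 to 3190 in WT, 3130 to 3210 in WTL, 2450 to 2490 in WT + JSH23 and 2740 to 2880 in WTL + JSH23. Of these macrophage markers 8 were lower and 2 higher with JSH-23 at rest, 9 were lower and 2 higher under LPS, and 3 of them (C1qa, C1qb and C1qc) are members. The 10 neutrophil markers summed to 195 to 219 TPM in WT, 218 to 226 in WTL, 189 to 210 in WT + JSH23 and 172 to 191 in WTL + JSH23, and of the 6 that were tested 1 was lower with JSH-23 at rest and 6 were lower under LPS. The 6 mast cell or basophil markers summed to at most 3.15 TPM, the B cell and T or NK cell markers to at most 0.63 and 3.54 TPM, and the 5 erythroid markers to at most 0.46 TPM. The stromal markers summed to 6.66 to 7.22 TPM in WTL and to at most 3.57 TPM elsewhere, nearly all of it Pdgfrb, and the other 4 of that list were under 0.1 TPM on average. The sums were lower with JSH-23, without overlap, for dendritic and mast cell markers at rest, for neutrophil markers under LPS and for macrophage and stromal markers in both states. The part of macrophage-like, neutrophil or other cells in the results was not tested, and in bulk RNA fewer cells of a type and less RNA per cell cannot be told apart.

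Members took 4.77% to 4.95% of the counts of a WT library, 4.04% to 4.07% in WTL, 2.77% to 2.92% in WT + JSH23 and 2.21% to 2.47% in WTL + JSH23. In the TMM-scaled CPM of the rule they summed to 43570 to 45820 in WT and 45960 to 47450 in WTL. With JSH-23 these sums were 24900 to 26070 at rest and 23520 to 26070 under LPS. The lower share with LPS was thus not seen after TMM scaling. The median ratio to the same cells without JSH-23 is set by the rule and is given only as a description, -0.84 at rest and -0.91 under LPS on the log2 scale, against -0.0078 and 0.020 for all genes tested. The 3 WT + JSH23 libraries were all below the 3 WT libraries for 236 of 236 members, as they were for 27.1% of all genes tested. Under LPS the same held for 235, against 27% of all genes, with Ltbp2 as the exception. At an adjusted p under 0.05 all 236 were lower with JSH-23 in both states, and 22.1% of all genes were lower at rest and 24.2% under LPS, which is no result about the members since these values chose them.

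**Figure D1:**
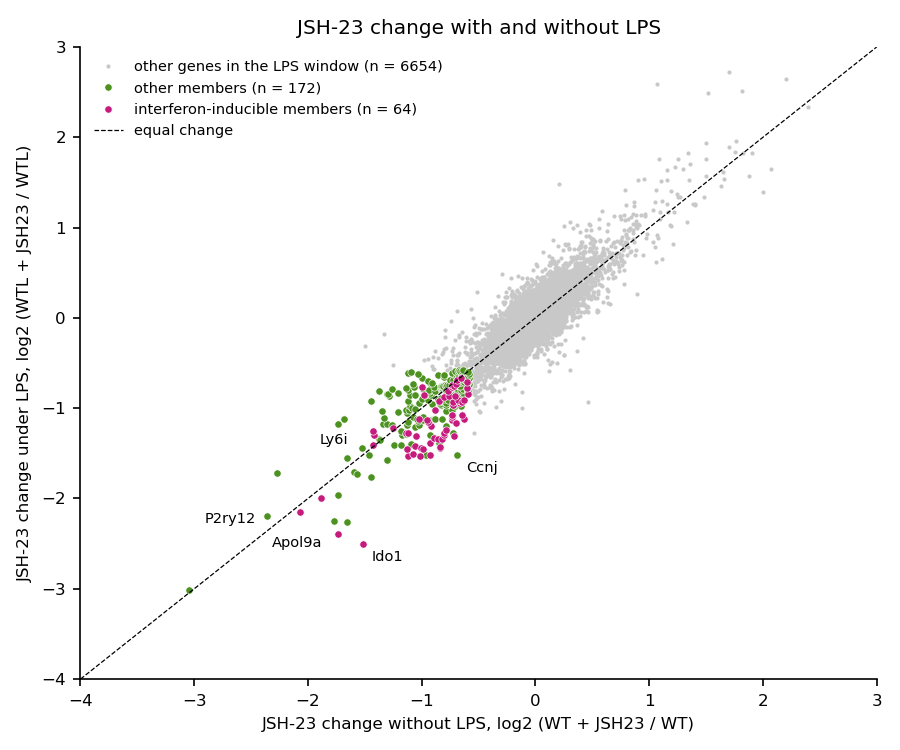
Each point is a gene of the LPS window, with the JSH-23 change without LPS on the x axis and under LPS on the y axis, both as log2 ratios of group means fitted by edgeR (n = 3 libraries a group). Members occupy the lower left corner because the rule placed them there, and 57 of the 64 interferon-inducible members lie below the dashed line of equal change.

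By function, assigned from general knowledge after the members were seen, 64 of the 236 (27.1%) were interferon-inducible genes, 45 surface receptors or lectins, 35 intracellular signalling proteins, 28 metabolic enzymes, 17 complement and secreted proteins, 17 transcription and chromatin factors, 15 cell cycle and mitosis genes and 15 were none of these. Of the 36 tested genes on a list of NF-κB targets none was a member, 34 of them having an LPS ratio over 1.5. No member came from the lists of Nrf2 targets (23 tested), the integrated stress response (19), DNA repair (63), or autophagy and lysosome biogenesis (42). Members were 1.64% of all genes tested, so few or none would be met in lists of this size, and nothing is read from these.

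Many interferon-inducible members also had a lower LPS change after JSH-23 than without it, a difference the rule did not bound. This interaction, the log2 LPS change in cells with JSH-23 less that in cells without, was lower (adjusted p under 0.05) for 34 of 64 and higher for 2, and it was below 0 for 57. Of the 172 other members it was lower for 14 and higher for 11. The background over all genes tested was 8.44% lower and 9.54% higher. The median interaction was -0.26 in the interferon-inducible members, -0.0016 in the other members and 0.026 in all genes tested. The interaction comes from the same libraries as the JSH-23 changes that chose the members and equals the difference between them, so the test is not independent of the choice, although the rule set no bound on its sign. With limma on log2(TPM + 1) the interferon-inducible members gave 14 lower, 2 higher with a median of -0.12, and the other members 4 lower and 15 higher with a median of 0.097, while the median of all genes moved to 0.11. Relative to the median of all genes, the interferon-inducible members lay at -0.29 in the CPM fit and -0.23 in the TPM fit.

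Gbp2, an interferon-induced GTPase that acts on membranes of intracellular pathogens, had the highest level of all members, with a mean of 2894 TPM in WT (chromosome 3, 142620602 to 142638008, plus strand). It gave 3966, 4160 and 4044 CPM in WT, 3803, 3826 and 3762 in WTL, 2527, 2531 and 2476 in WT + JSH23, and 2415, 2468 and 2179 in WTL + JSH23. The 4 groups did not overlap, and the step between the groups with and without JSH-23 was the wide one. Its interaction was 0.0021 (SE 0.056, adjusted p = 0.986), so no difference between the JSH-23 changes with and without LPS was detected.

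Ifit2, which binds foreign RNA and blocks its translation, stood at 1626, 1775 and 1610 CPM in WT, 1546, 1515 and 1425 in WTL, 902, 943 and 931 in WT + JSH23 and 571, 613 and 584 in WTL + JSH23 (chromosome 19, 34550694 to 34576419). Every group was clear of the next, and the lowest was the one given both agents. Its LPS change after JSH-23 was -0.65 on the log2 scale (SE 0.043, adjusted p = 3.16e-11), and the interaction was -0.49 (SE 0.060, adjusted p = 9.04e-06). Its neighbour Ifit1 had 720, 793 and 711 CPM in WT, 993, 995 and 922 in WTL, 479, 464 and 478 in WT + JSH23 and 458, 470 and 456 in WTL + JSH23. Ifit1 was higher in every WTL than in every WT library, while the libraries with JSH-23 overlapped, and its interaction was -0.43 (SE 0.060, adjusted p = 3.95e-05).

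Mx1, a dynamin-like antiviral GTPase, behaved like Ifit1. Its libraries held 1627, 1656 and 1621 CPM in WT, 2300, 2290 and 2113 in WTL, 952, 944 and 920 in WT + JSH23 and 939, 962 and 863 in WTL + JSH23. The rise of 1.37-fold with LPS was absent from the libraries with JSH-23, whose 2 groups overlapped, and the interaction was -0.48 (SE 0.059, adjusted p = 8.91e-06). Mx1 had fractional expected counts in all 12 libraries, meaning that some of its reads were shared with other genes and divided by the authors' software.

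Among the lower-level members, Apol9a, an interferon-inducible apolipoprotein L gene, had 13.2, 13.9 and 14.3 CPM in WT, 15.1, 16.9 and 19.4 in WTL, 3.69, 4.02 and 4.80 in WT + JSH23 and 3.23, 3.22 and 3.28 in WTL + JSH23. The 4 groups were distinct, with the order of the LPS groups reversed by JSH-23. Its LPS change after JSH-23 was -0.36 (SE 0.13, adjusted p = 0.0286) and its interaction -0.66 (SE 0.16, adjusted p = 0.00583), which did not pass with limma on log2(TPM + 1). Apol9a had fractional expected counts in all 12 libraries, so the split of its reads with other genes is uncertain. Apol9b is also a member.

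Daxx, which deposits histone H3.3 and is induced by interferon, gave 188, 195 and 193 CPM in WT, 246, 264 and 249 in WTL, 113, 117 and 121 in WT + JSH23 and 97.0, 105 and 105 in WTL + JSH23. It was higher with LPS in cells without JSH-23 and lower in cells with it, with no overlap in either pair (interaction -0.59, SE 0.059, adjusted p = 8.07e-07). Slfn4, a Schlafen family gene of myeloid cells, had 70.7, 71.2 and 66.9 CPM in WT, 106, 97.2 and 97.9 in WTL, 38.8, 38.1 and 39.9 in WT + JSH23 and 37.8, 43.1 and 29.4 in WTL + JSH23. The libraries with JSH-23 overlapped and the interaction was -0.60 (SE 0.11, adjusted p = 0.000640), which also did not pass with limma on log2(TPM + 1).

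The immunity-related GTPase Iigp1, which attacks vacuoles that hold parasites, was among the lowest with JSH-23, with 87.6, 94.7 and 83.8 CPM in WT, 69.5, 67.2 and 62.8 in WTL, 20.6, 21.7 and 21.1 in WT + JSH23 and 14.5, 16.9 and 13.4 in WTL + JSH23. Ifi208, a PYHIN family gene related to DNA sensors, had 38.4, 42.3 and 40.1 CPM in WT and 10.88, 10.92 and 10.96 in WT + JSH23. No library of either gene with JSH-23 came near one without it. Their ratios at rest were 0.238 and 0.271, and neither interaction passed (adjusted p = 0.616 and 0.458). Ly6e, a GPI-anchored protein that limits virus entry, and Rnf213, a very large ubiquitin ligase that coats intracellular bacteria, were also among the 10 members of highest TPM, with ratios at rest of 0.592 and 0.615. Ly6c2, which encodes the monocyte surface antigen Ly6C, had a ratio of 0.370 at rest and 0.375 under LPS.

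Among the interferon-inducible members the positive interactions that passed were those of Gbp9 (0.23) and Gbp7 (0.18), 2 further guanylate-binding proteins. With DESeq2 size factors, in the same edgeR test, neither passed and 37 interferon-inducible members were lower.

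**Figure D2:**
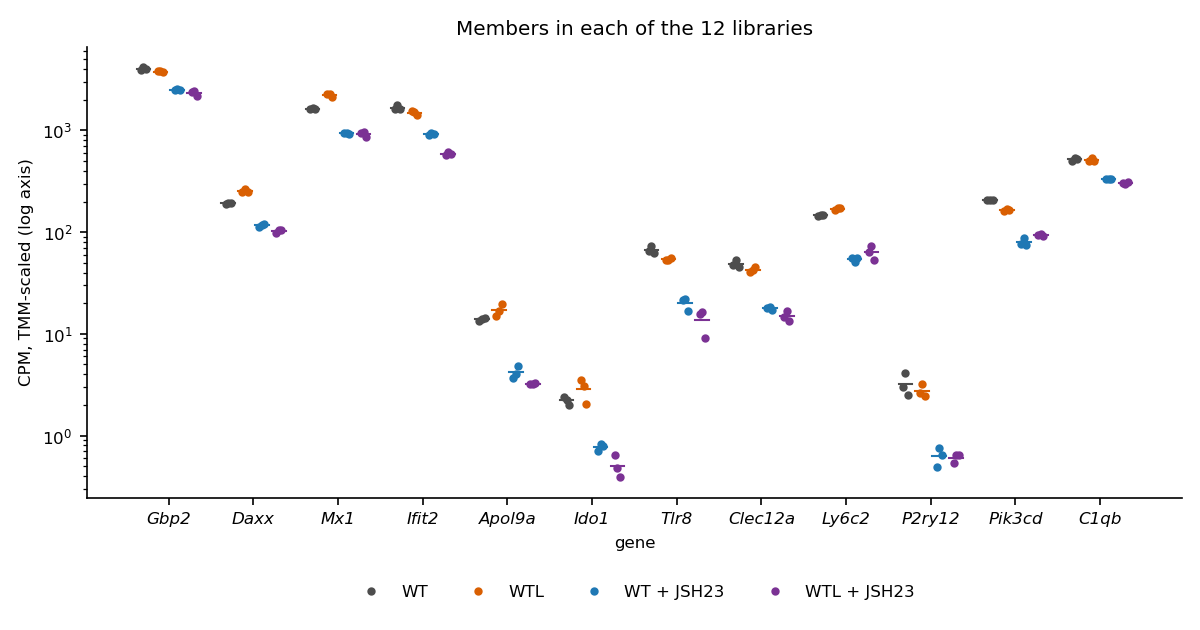
CPM (TMM-scaled, log axis) of 12 members in each of the 12 libraries, with a point for a library and a bar for the mean of the 3 libraries of a group. For every gene shown the libraries with JSH-23 lie below those without it, and Mx1, Apol9a, Daxx and Ido1 show means that are higher in WTL than in WT but not higher in WTL + JSH23 than in WT + JSH23.

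A broader list of interferon-stimulated genes, also written after the members were seen and holding all 64, had 139 genes tested, of which 107 lay in the LPS window, 18 had a ratio over 1.5 and 11 one under 0.67. Of its 75 genes that were not members, 68 were lower and 1 was higher with JSH-23 at rest, and 71 were lower and 2 higher under LPS, with median log2 changes of -0.40 and -0.60. The background over all genes tested was 22.1% lower and 18.8% higher at rest, and 24.2% lower and 24.5% higher under LPS. Of its genes in the window 43 were not members. Over its 139 genes tested, members included, the interaction was lower for 76 and higher for 9. A lower interaction was thus not particular to the members, of which 34 of 64 were lower. On a list of interferon ligands, receptors and signalling genes 22 were tested, 2 were members, among them the phosphatase gene Ptpn6, and of the other 20 there were 16 lower and none higher at rest (edgeR, adjusted p) and 17 lower and 1 higher under LPS. Ifnar1, a chain of the type I interferon receptor, missed membership narrowly with ratios of 0.595 at rest and 0.679 under LPS. Irf3, which drives the first wave of interferon transcription, had ratios of 1.008 and 0.938 and Jak1, a kinase bound to the receptor, 0.969 and 0.913. The interferon gene Ifnb1 had ratios of 0.111 and 0.1185, at a mean of only 0.3985 CPM in WT. For Irf7 the ratios were 0.761 and 0.653 and for Stat2 0.753 and 0.645.

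Promoter sequence was not used by the rule, although the role of a member was assigned with its name known. RefSeq windows on build GRCm38.p6, from 250 bases before to 50 after a gene's start, were at hand for 180 of the 236 members, 53 of them interferon-inducible, and for 9706 tested protein-coding genes. The interferon-stimulated response element, searched on both strands as GAAA, any 2 bases and GAAA again, was in 25 of 53 windows of interferon-inducible members (47.2%), in 7 of 127 of other members (5.51%), in 3.01% of 5374 window genes that were no members and in 3.49% of all 27025 promoters in the table. Some windows are near copies of each other, because these genes sit in families. Over all members the element was in 32 of 180 windows (17.8%). The interferon-inducible role was given by name to genes of a programme known to use this element. Its share in that group thus follows in part from the label and is no independent result about the members. Interferon-stimulated genes that are not members were not counted apart. The sites below are printed with 15 bases on each side to show where the element sat in members whose values are described here or that represent a family, read 5′ to 3′ on the strand of the gene with the element in capitals; TTTC at its left end marks the reverse orientation.
Gbp2 (chr3:142620589-142620628, plus strand): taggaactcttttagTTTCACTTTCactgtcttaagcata
Gbp7 (chr3:142530268-142530307, plus strand): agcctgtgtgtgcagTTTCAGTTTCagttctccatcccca
Ifit1 (chr19:34640789-34640828, plus strand): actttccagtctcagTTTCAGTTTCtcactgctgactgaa
Apol9a (chr15:77411115-77411154, minus strand): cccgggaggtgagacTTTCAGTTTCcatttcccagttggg
Apol9b (chr15:77729020-77729059, plus strand): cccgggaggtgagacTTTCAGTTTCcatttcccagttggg
Ifi208 (chr1:173673592-173673631, plus strand): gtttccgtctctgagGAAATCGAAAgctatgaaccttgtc
Igtp (chr11:58199507-58199546, plus strand): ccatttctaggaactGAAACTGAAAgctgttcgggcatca
Irgm2 (chr11:58214898-58214937, plus strand): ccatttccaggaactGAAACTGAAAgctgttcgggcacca
Tgtp2 (chr11:49064258-49064297, minus strand): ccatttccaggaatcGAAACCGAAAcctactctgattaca
Ddx58 (chr4:40239799-40239838, minus strand): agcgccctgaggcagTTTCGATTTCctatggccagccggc
Apol9a and Apol9b carried the same letters throughout, and Igtp and Irgm2, neighbouring immunity-related GTPase genes, shared all of the element and most of its flanks. The windows of Apol9a and Apol9b each held a further match, TTTCCATTTC, which overlaps the one in capitals. Ifit1 held a further match upstream of the one printed. Among members of other roles the element stood in the windows of Aif1, Pilrb1, Pilrb2, Rnase6, Sirpb1a, Sirpb1b and Tnfrsf14. In Rnase6, a secreted ribonuclease of myeloid cells, the site was as follows.
Rnase6 (chr14:51129002-51129041, plus strand): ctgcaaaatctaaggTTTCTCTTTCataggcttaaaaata

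Other motifs were searched in the same way. The gamma-activated site, TTCNNNGAA, was in 17.0% of the interferon-inducible members' windows, 8.66% of the other members' and 6.74% of the non-member window genes'. The NF-κB consensus was in 9.43%, 6.3% and 4.78%, and in 4.35% of all promoters. TGANTCA, the AP-1 element, was in 17.0%, 7.87% and 4.41%, and the core of PU.1 sites, GAGGAAG, in 22.6%, 19.7% and 13.5%. TATAAA was in 24.5%, 7.09% and 5.99%, and TTTGAA, found in promoters of mitotic genes, in 30.2%, 20.5% and 11.5%. CCAAT was in 39.6%, 35.4% and 38.3%. TGACGTCA, the cAMP response element, was in 0%, 3.94% and 3.65%, and the E-box CACGTG in 0%, 9.45% and 11.4%. Over all promoters the shares were 8.47% for the gamma-activated site, 7.93% for AP-1, 13.5% for PU.1, 14.2% for TATAAA, 18.1% for TTTGAA, 37.9% for CCAAT, 1.88% for the cAMP response element, 7.24% for the E-box and 35.9% for the GC box. In the other direction GGGCGG, the GC box, was in 30.2%, 52.0% and 67.4%. The median observed-to-expected CpG ratio of a window was 0.259, 0.483 and 0.812, and the median GC content 49.3%, 55.7% and 61.3%. A CpG ratio over 0.6 was found in 35.6% of the members' windows and in 80.7% of those of the other window genes. A match describes the letters of a window, not binding, and the start used in these cells was not measured.

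**Figure D3:**
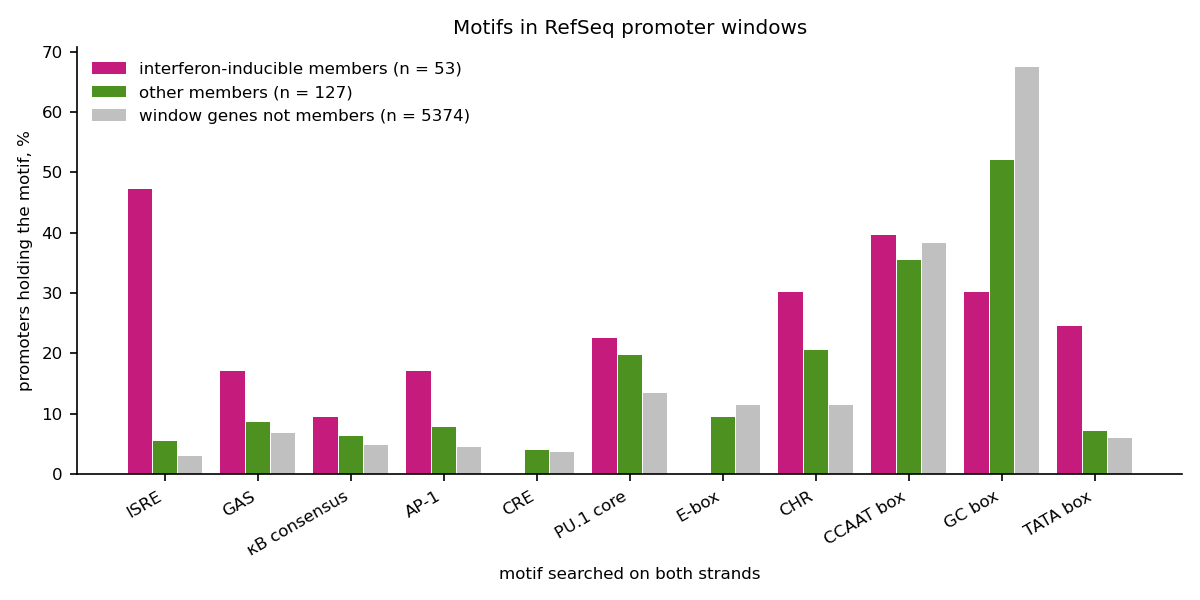
Bars give the percent of RefSeq promoter windows that hold each motif on either strand, for 53 interferon-inducible members, 127 other members and 5374 genes of the LPS window that are not members. The interferon-stimulated response element (ISRE) is at 47.2% in the interferon-inducible members against 5.51% and 3.01%, and the GC box at 30.2% and 52.0% in members against 67.4%. Over all members the ISRE is at 17.8%, and its share in the interferon-inducible members follows in part from that label, which was given by name.

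Surface receptors and lectins were the next largest role, 45 members with median ratios of 0.520 at rest and 0.534 under LPS. Tlr8, an endosomal receptor for RNA, had 65.1, 72.9 and 62.3 CPM in WT, 53.5, 53.4 and 55.7 in WTL, 21.4, 22.2 and 16.6 in WT + JSH23 and 15.7, 16.4 and 9.12 in WTL + JSH23. Its groups were separate, with WTL + JSH23 replicate 3 the lowest of all, and its LPS change after JSH-23 was -0.53 (SE 0.14, adjusted p = 0.00231). The C-type lectin Clec12a, an inhibitory receptor for dead cells, ran at 47.8, 53.5 and 45.7 CPM in WT, 40.3, 42.6 and 45.5 in WTL, 18.01, 18.41 and 17.02 in WT + JSH23 and 14.7, 16.6 and 13.2 in WTL + JSH23. No library with JSH-23 reached 20 CPM for Clec12a, while none without it was below 40.

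Adgre4, an adhesion receptor of monocytes and macrophages, had ratios of 0.338 at rest and 0.300 under LPS. The values were 0.406 and 0.334 for the C-type lectin Clec4a1, 0.347 and 0.366 for Ly6i and 0.331 and 0.307 for the SLAM family gene Slamf9. P2ry12, a purinergic receptor best known on platelets and microglia, had the lowest ratio at rest of this role (0.197) at a low level, with 3.00, 4.15 and 2.48 CPM in WT and 0.492, 0.760 and 0.647 in WT + JSH23, and it lies within the span of Med12l, which is a member too. Its neighbour P2ry14, a receptor for UDP-glucose, had 120, 131 and 117 CPM in WT, 175, 174 and 166 in WTL, 66.3, 60.4 and 66.9 in WT + JSH23 and 72.4, 71.4 and 65.6 in WTL + JSH23. The LPS rise of P2ry14 was smaller after JSH-23, where the groups overlapped (interaction -0.37, SE 0.072, adjusted p = 0.00119).

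Of the 45 receptors and lectins 4 had a positive interaction that passed and 2 a negative one. Over all genes tested 9.54% were higher and 8.44% lower, and nothing is read from these counts. The positive ones were Gpr141, Sema6d, Cd72 (0.32), a B cell coreceptor also found on myeloid cells, and Nod1 (0.25), a sensor of bacterial cell wall fragments. Gpr141, an orphan G protein-coupled receptor, had 246, 276 and 244 CPM in WT, 196, 183 and 191 in WTL, 80.1, 81.8 and 77.8 in WT + JSH23 and 88.3, 97.2 and 76.3 in WTL + JSH23. Every WTL library was below every WT library, the JSH-23 groups overlapped, and its interaction was 0.56 (SE 0.089, adjusted p = 0.000150). For Sema6d, a transmembrane semaphorin, the libraries gave 394, 391 and 383 CPM in WT, 535, 523 and 539 in WTL, 145, 153 and 130 in WT + JSH23 and 284, 285 and 276 in WTL + JSH23. Sema6d was higher with LPS in both states and more so after JSH-23, by 0.98 (SE 0.045, adjusted p = 7.51e-14), with an interaction of 0.53 (SE 0.063, adjusted p = 6.14e-06). Sema4a, a semaphorin that costimulates T cells and the receptor of highest TPM, had an interaction of -0.050 (adjusted p = 0.607).

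Across the lists written for receptors, 10 of 62 tested lectins and immunoglobulin-like receptors of myeloid cells were members (16.1%), 5 of 41 pattern recognition genes, 6 of 74 cytokine receptors and 6 of 124 G protein-coupled receptors. Members were 1.64% of all genes tested. Of all genes tested 22.1% were lower and 18.8% higher with JSH-23 at rest, and 24.2% were lower and 24.5% higher under LPS. Of the 52 non-members among the lectins and immunoglobulin-like receptors, 18 were lower and 15 higher with JSH-23 at rest. On a monocyte gene list, written after the members were seen, 22 were tested and 10 were members. Of its other 12 genes 9 were lower and 1 higher with JSH-23 in either state, and several of these failed the LPS window, such as Cx3cr1 with an LPS ratio of 0.211 and a JSH-23 ratio of 0.114. The marker sums of macrophages, which include the C1q members, and of neutrophils under LPS were lower with JSH-23 too, as given above. The part of these cells in the values was not tested.

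Intracellular signalling members numbered 35, with median ratios of 0.560 and 0.569. They included the Src family kinases Fgr and Lyn. Fgr had 92.7, 96.8 and 98.5 CPM in WT, 82.2, 85.2 and 82.9 in WTL, 37.8, 40.0 and 32.9 in WT + JSH23 and 35.4, 36.1 and 27.1 in WTL + JSH23. Its LPS groups overlapped only with JSH-23, and its interaction was 0.037 (adjusted p = 0.857). Lyn, in contrast, was higher with LPS by a ratio of 1.301 without JSH-23 and did not pass after it (-0.030, adjusted p = 0.628), with an interaction of -0.41 (SE 0.066, adjusted p = 0.000172).

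Pik3cd, the catalytic subunit of the leukocyte phosphoinositide 3-kinase, had the largest positive interaction among members with at least 10 CPM. It gave 208, 208 and 206 CPM in WT, 163, 169 and 165 in WTL, 76.2, 88.1 and 75.1 in WT + JSH23 and 93.1, 96.9 and 92.5 in WTL + JSH23. LPS lowered it without JSH-23 and raised it after JSH-23, with no overlap in either pair (LPS change after JSH-23 0.24, SE 0.049, adjusted p = 0.000310, and interaction 0.57, SE 0.068, adjusted p = 7.01e-06). Prkcd, a protein kinase C isoform, was the signalling member of highest TPM, with 1334, 1372 and 1357 CPM in WT and 919, 920 and 875 in WT + JSH23. It also sat at the edge of the rule, with a ratio of 0.6678 at rest. Just inside beside it was Scarf1, whose higher ratio was 0.6687, and just outside were Ms4a6b at 0.6704 and Dok1 at 0.6706.

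Among the 17 complement and secreted members were all 3 chains of C1q, which starts the classical complement pathway. C1qb had 499.9, 536 and 526 CPM in WT, 497, 532 and 506 in WTL, 329.5, 329.6 and 330.2 in WT + JSH23 and 303, 295 and 312 in WTL + JSH23. WT and WTL overlapped, and its LPS change after JSH-23 was -0.12 (SE 0.038, adjusted p = 0.0108), with no interaction called (-0.096, adjusted p = 0.244). C1qa and C1qc had ratios of 0.577 and 0.621 at rest. Lpl, which frees fatty acids from lipoproteins, had 2161, 2452 and 2170 CPM in WT, 1795, 1763 and 1768 in WTL, 1172, 1070 and 1012 in WT + JSH23 and 917, 945 and 775 in WTL + JSH23. Its groups did not overlap and its interaction was 0.046 (adjusted p = 0.779). Haptoglobin (Hp) had ratios of 0.387 and 0.392.

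Metabolic enzymes made up 28 members. Separately, 3 of the 8 tested genes on a list for the breakdown of tryptophan by way of kynurenine, written after they were seen, were members. Of the other 5, 3 were lower and none higher with JSH-23 at rest, and 2 were lower and 1 higher under LPS. Ido1, the first enzyme of this pathway and counted with the interferon-inducible members, was low. It had 2.42, 2.22 and 2.00 CPM in WT, 3.53, 3.10 and 2.03 in WTL, 0.707, 0.832 and 0.783 in WT + JSH23 and 0.638, 0.478 and 0.389 in WTL + JSH23. WT and WTL overlapped, the libraries with JSH-23 lay below both, and its interaction of -0.99 did not pass (SE 0.36, adjusted p = 0.0621). Kynu, which cleaves kynurenine, stood at 134, 142 and 138 CPM in WT, 188.9, 188.7 and 190.1 in WTL, 85.4, 84.1 and 85.0 in WT + JSH23 and 98.8, 101 and 89.5 in WTL + JSH23. LPS raised it in both states, less after JSH-23 (interaction -0.27, SE 0.060, adjusted p = 0.00310). Kmo, the monooxygenase between them, had ratios of 0.470 and 0.375 at 3.397 CPM in WT. St8sia6, a sialyltransferase at 10.5 CPM in WT, had an interaction of 0.51 (SE 0.14, adjusted p = 0.0164), which did not pass without WT + JSH23 replicate 3 (0.44), without WTL + JSH23 replicate 1 (0.44) or with limma on log2(TPM + 1) (0.42).

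Of the 17 transcription and chromatin members, Runx1, a regulator of blood cell identity, had 49.42, 50.96 and 46.74 CPM in WT, 36.7, 37.2 and 34.7 in WTL, 18.7, 21.2 and 21.5 in WT + JSH23 and 21.4, 22.2 and 19.1 in WTL + JSH23. The libraries overlapped with JSH-23 and not without it, and the interaction was 0.47 (SE 0.090, adjusted p = 0.000902). Nr1h3, the oxysterol receptor LXRα, had ratios of 0.582 and 0.508. The smallest ratios of all members belonged to Elavl4, an RNA-binding protein gene of neurons (0.120 and 0.119), at only 2.80 CPM in WT and at most 0.506 CPM in any library with JSH-23.

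Cell cycle and mitosis members numbered 15, among them Top2a and Ccnb2, with ratios at rest of 0.526 and 0.478 and WT means of 37.1 and 5.83 CPM. Ccnj, a cyclin of little known function, had the largest negative interaction among members with at least 10 CPM. Its libraries gave 16.9, 18.3 and 18.4 CPM in WT, 18.3, 17.8 and 15.8 in WTL, 10.1, 11.9 and 11.4 in WT + JSH23 and 6.24, 6.49 and 5.32 in WTL + JSH23. WT and WTL overlapped, whereas with JSH-23 every library with LPS was below every one without it (LPS change -0.88, SE 0.094, adjusted p = 7.58e-08, and interaction -0.84, SE 0.12, adjusted p = 5.43e-05). On the cell cycle and replication list, 2 of 40 tested genes were members, against 1.64% of all genes tested. Of the other 38 there were 19 lower and 5 higher with JSH-23 at rest, against 22.1% and 18.8% of all genes tested.

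**Figure D4:**
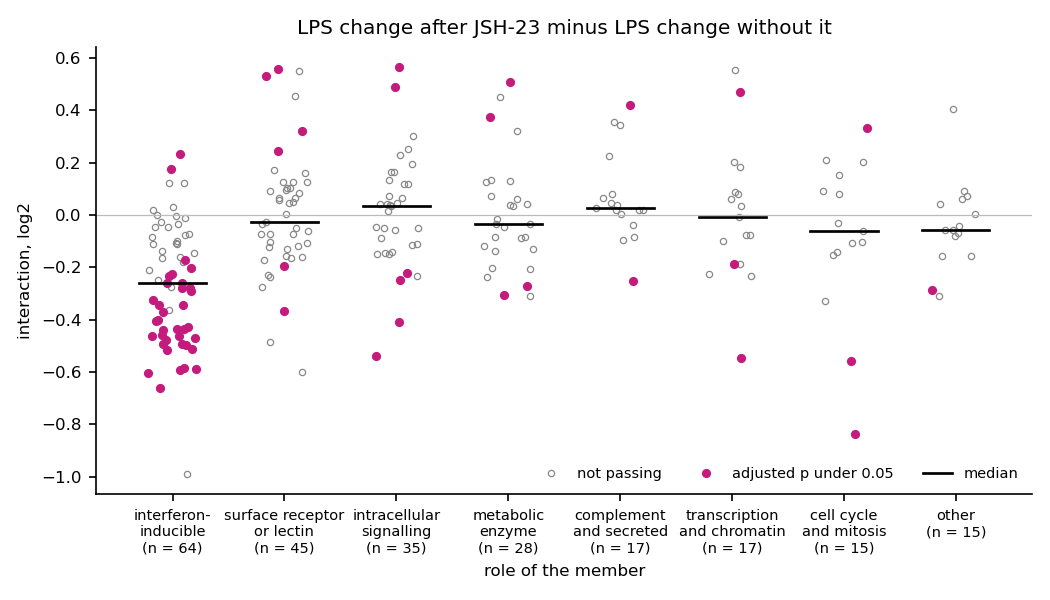
Interaction (difference between the LPS changes with and without JSH-23, log2, edgeR) of each of the 236 members by role, with filled points for an adjusted p under 0.05 and a line for the median. The interferon-inducible members centre on -0.26, and the medians of the other roles lie near 0.

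The LPS change after JSH-23 was the comparison of WTL + JSH23 with WT + JSH23. The rule did not name this ratio, but its 3 limits use both groups and so constrain it, and the counts are not independent of the choice of members. Of the 236 members 52 were higher (22%) and 95 lower (40.3%), against 27.4% and 27.1% of all genes tested. The median change was -0.13 on the log2 scale, against -0.018 for all genes. The split of these calls moved with the scaling, with 115 lower and 34 higher when libraries were scaled by upper quartiles, and 134 lower against 16 higher in the limma fit of log2(TPM + 1), where the median of all genes was -0.10 and -0.16. Interferon-inducible members made up 36 of the 95 lower and 10 of the 52 higher. Without JSH-23, the LPS change, which the rule bounded, had 163 members past an adjusted p of 0.05 (75 higher and 88 lower, 69.1%), close to the 65.7% of all genes, and nothing is read from this count. In TPM the median LPS change of all genes was -0.26, against -0.047 in the CPM fit.

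**Figure D5:**
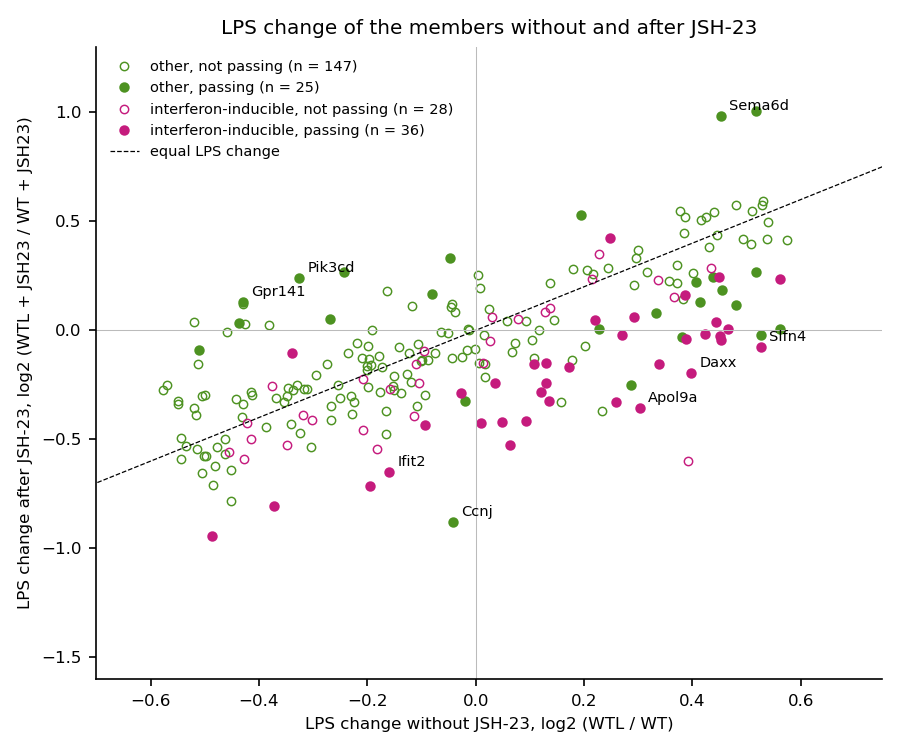
LPS change of each member without JSH-23 (x axis) and after JSH-23 (y axis), both log2, with filled points where the interaction passed. Of the 36 interferon-inducible members that passed, 34 lie below the dashed line of equal change, and among the 25 other members that passed 14 lie below it and 11 above.

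Over all members the interaction was lower for 48 (20.3%) and higher for 13 (5.51%), against 8.44% and 9.54% of all genes tested. The median interaction of the members was -0.066. With limma on log2(TPM + 1) the counts were 18 lower and 17 higher. Without WTL + JSH23 replicate 3, the library that differed most from its fellows, the median was -0.018, and without WTL + JSH23 replicate 2 it was -0.103. Without replicate 3 the interferon-inducible members counted 32 lower and 3 higher, and the other members 10 lower and 17 higher.

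Some members were neighbours on the genome. Of the 236, 71 (30.1%) had another member within 200 kb, in 25 clusters of which 10 held at least 3. Of the 6654 other genes of the LPS window, 576 (8.66%) had a member within that distance. The largest cluster, on chromosome 1 from 173333258 to 173942672, held 8 members out of 12 tested protein-coding genes, of which Aim2 and the Ifi genes Ifi206, Ifi213, Ifi209, Ifi208, Ifi207 and Ifi203 belong to the PYHIN family of DNA sensors. The next, on chromosome 11 from 48887422 to 49096974, held 6 of 9, with the GTPase genes Tgtp2 and Ifi47, and a cluster on chromosome 14 from 59244441 to 59440884 held 5 of 6, with Phf11a, Phf11b, Phf11c and Setdb2. The Schlafen genes on chromosome 11 (82978390 to 83215154) gave 4 of 6, and the C1q genes on chromosome 4 (136880129 to 136898803) 3 of 3. Many of these are families of similar sequence, so members of a cluster can share reads.

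Fractional expected counts occurred for 79 members (33.5%), in all 12 libraries for 48, against 32% of the other window genes. Members had a median of 44.2 TPM in WT, above the 24.2 TPM of the other window genes, a median transcript length of 2679 against 2381 bases and 8 against 10 exons in their longest model. The share that overlapped another protein-coding gene was 17.8%, against 28.7%. The isoform-weighted transcript length, a readout of isoform use, was tested with limma for 177 members. None passed an adjusted p of 0.05 in either JSH-23 comparison, and 12 and 23 had an unadjusted p under 0.05 (6.78% and 13% of members, against 6.45% and 9.39% of the 9138 genes tested). The background of calls was 0.0875% at rest and 0.0875% under LPS.

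When the rule was applied to 2 libraries per group and read in the third, left out in turn, it chose 239, 245 and 221 genes. In the libraries left out, 82.4%, 75.9% and 85.5% of these had both JSH-23 ratios within the limit. Their median ratios there were 0.561, 0.561 and 0.55 at rest and 0.531, 0.569 and 0.494 under LPS, against medians between 0.992 and 1.01 for all protein-coding genes at that level. These are descriptions, since 1 library per group was left for each reading. The libraries left out also share the groups and number sets of those used, so any batch that follows JSH-23 stays in both.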

How the data were processed

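RNA-seq of 12 libraries was analysed from the gene tables the authors deposited. Reads had been trimmed (Trim Galore), aligned to mm10 (STAR, 2.6.0c per the submitters' notes) and quantified per gene (RSEM) by the authors. The deposited expected counts assign shared reads in fractions, and the deposited TPM values, FPKM values (not used here) and transcript lengths come from the same RSEM runs. The labels name a kit for ribosomal RNA depletion and the study's methods one for poly(A) selection. Symbols, types and positions came from GENCODE M21, which matched 55154 of 55335 identifiers.

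Expected counts were rounded and filtered with filterByExpr. Tests used the quasi-likelihood F-test of edgeR 4.0.16 in R 4.3.3 with TMM scaling and 1 mean per group over all 12 libraries (8 residual degrees of freedom), Benjamini-Hochberg adjusted over all genes tested. Transcript lengths were tested on log2 values with limma 3.58.1. SE is the absolute log2 change divided by the square root of F. Alternatives used DESeq2 1.42.0 and limma on log2(TPM + 1). The tests were tried on simulated data. Members, lists, roles and motifs were chosen with earlier results of these data known. Genes were named as the 10 highest members by TPM in WT, the 12 lowest by both JSH-23 changes and the 4 largest interactions in each direction (the last 2 from 10 CPM in WT), the genes at the limit, and others chosen after their values were seen. Some of these genes are not reported here.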

Additional observations from a re-analysis of the deposited data

Results flagged for a closer look

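By the edgeR test the interaction was lower for 48 members (20.3%) and higher for 13 (5.51%), against 8.44% and 9.54% of all genes tested. With limma on log2(TPM + 1) it was lower for 18 and higher for 17. Of the members picked by the naming rule for level, JSH-23 change or interaction, those that passed were negative for Mx1 (-0.478), Ifit2 (-0.492), Apol9a (-0.661), Ccnj (-0.837), Slfn4 (-0.604) and Daxx (-0.594). They were positive for Gpr141 (0.558), Pik3cd (0.565), Sema6d (0.531) and St8sia6 (0.510).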

How the results depend on the processing

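The number of members depended on the limits that define them, with 58 at a JSH-23 limit of 0.5, 398 at 0.75 and 131 in an LPS window from 0.8 to its reciprocal. It was 180 with ratios of TPM, 138 of them shared with the 236, and 214 to 243 under the other scalings. Leaving out 1 library gave 221 to 247 members, 48 to 62 members passing for the interaction, 130 to 146 passing for LPS after JSH-23 and a median interaction from -0.103 to -0.0178, and 0 passing for transcript length in each case. With limma on log2(TPM + 1) the interaction passed for 35 members, 28 of them shared with the 61, and its median was 0.0599, and the cause was not tested. Among the 157 members with whole counts in all libraries, an alternative chosen after seeing the data, 32 passed for the interaction and 92 for LPS after JSH-23, and among members that are not interferon-inducible 25 passed for the interaction, in both cases out of fewer genes. For 28 named genes over 19 alternatives no called interaction changed direction, 5 values lost and 5 gained their call, the latter all for Clec4a1. Whether equal replicate numbers pair the samples could not be settled. Correlations of deviations at equal numbers were small but positive, 0.0213 to 0.0614 between WT and WTL and 0.0142 to 0.0564 between the JSH-23 groups. At unequal numbers they ran from -0.0501 to -0.00276 and from -0.0564 to 0.0355. With the replicate number as a block, 72 members passed for the interaction and 150 for LPS after JSH-23. Every WT and WTL library, but not every JSH-23 library, correlated best with its own number. Genes of a few CPM, such as Elavl4, Ido1 and P2ry12, rest on few counts per library.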
